A study of Mus musculus with 18 samples.

Results

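The synapse genes described here are 39 genes of synaptic adhesion, vesicle release and postsynaptic scaffolding, followed in cells sorted as interneurons from the embryonic and newborn mouse cortex. They were chosen by gene symbol, each gene was read from the brightest of the array's probe sets that name it alone, and 37 of the 39 had such a probe set. A filter on low values left 35 of them among 14292 genes tested. Sv2c and Shank1 averaged 5.17 and 5.0 on the log2 scale over the 18 arrays, below the filter level of 5.255. Shank2 had no probe set in the annotation used here, and the 3 probe sets that name Nptxr also name another gene, so neither is reported.

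Cells came from Htr3a-KO;GAD65-GFP mice, which lack the ionotropic serotonin receptor subunit Htr3a, and from GAD65-GFP controls. GAD65-GFP is a transgene, carried by both genotypes, that makes inhibitory neurons fluoresce, and the fluorescent cells were sorted. Both genotypes were sampled at E14.5, E18.5 and P2, ages the submitters describe as tangential migration, entry into the cortical plate and settling. Each of the 6 groups holds 3 arrays of an Affymetrix whole-genome mouse design, from 3 litters with at least 4 brains pooled per array, so single animals and sorted fractions are not resolved.

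A synapse forms when adhesion proteins such as neurexins on the axon and neuroligins or LRRTMs on the target cell hold the membranes together and recruit machinery on both sides. On the sending side, active zone proteins such as RIM, Munc13, Bassoon and Piccolo dock and prime vesicles, and the SNARE proteins syntaxin, SNAP-25 and synaptobrevin fuse them with the membrane when synaptotagmin senses calcium. On the receiving side, scaffolds such as PSD-95, PSD-93 and the Shank proteins organise excitatory synapses, and gephyrin organises inhibitory ones.

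Htr3a itself gave a log2 difference, Htr3a-KO minus control, of -0.75 at E14.5, where limma's adjusted p was 0.708. The difference was -3.51 at E18.5 and -1.94 at P2, with limma's adjusted p at 7.66e-06 and 0.0109. Where the probes lie relative to the deleted part is not known here. Marker genes of several other cell types changed strongly with age. The mean log2 level of 9 tested astrocyte markers was 7.60, 8.37 and 10.78 in Htr3a-KO groups at E14.5, E18.5 and P2, and 7.34, 7.60 and 10.42 in control groups. Of 8 oligodendrocyte lineage markers 7 rose between E14.5 and E18.5 and 1 fell, and of 12 excitatory neuron markers 11 were lower at P2 than at E14.5. At E14.5 the 12 excitatory markers averaged 10.55 in Htr3a-KO and 10.43 in control, and 8 tested GABAergic markers averaged 9.82 and 10.04. Neurod6, an excitatory marker, stood at 11.97 to 12.38 in the E14.5 arrays and at 8.91 to 11.33 in the P2 arrays. Such levels do not give the share of each cell type. Of 8 GABAergic neuron markers 6 were lower at P2 than at E14.5, with Gad2 at 8.44 to 9.35 in the P2 arrays and 9.34 to 11.57 in the E14.5 arrays. Of all genes tested, 12.2% rose and 15.5% fell between E14.5 and E18.5. At P2, 22.3% of all genes were higher and 31.9% lower than at E14.5. Gad1 stood at 11.19 to 11.79 in the P2 arrays and at 10.88 to 12.34 in the E14.5 arrays. Of 10 markers of interneurons from the caudal ganglionic eminence, 4 were higher and 2 lower at P2 than at E14.5. Vip and Cck led them at 2.71 and 1.69. In such bulk samples fewer cells of a type and less RNA per cell cannot be told apart, and the part of these other cells in the age differences below was not tested.

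Promoter sequence is shown for 4 members that carry different values below: Rims1, Unc13a and Stx1a, which rose together between E14.5 and E18.5, and Syn1, which did not pass the test in any comparison. Each is 250 bases before to 50 bases after a start of the gene on GRCm38.p6, printed 5′ to 3′ on the gene's strand. For Rims1, Stx1a and Syn1 this is the outer start of the RefSeq gene. The start used for Unc13a lies slightly inside the RefSeq gene, whose outer start is chr8:71671774. Capitals mark matches on either strand to the half-sites CAGCACC or GGACAG of the element bound by the neuronal gene repressor REST, to the cyclic AMP response element TGACGTCA, to the E-box CAGCTG, or to both half-sites 2 bases apart with at most 1 mismatch, as in the first marked stretch of Syn1, with overlapping matches marked together. The genes and motifs were chosen after the values and matches were seen, and a further short pattern was searched and not kept. The Rims1 window is chr1:22806109-22806408 (minus strand), Unc13a chr8:71671708-71672007 (minus), Stx1a chr5:135023232-135023531 (plus) and Syn1 chrX:20920869-20921168 (minus).
Rims1: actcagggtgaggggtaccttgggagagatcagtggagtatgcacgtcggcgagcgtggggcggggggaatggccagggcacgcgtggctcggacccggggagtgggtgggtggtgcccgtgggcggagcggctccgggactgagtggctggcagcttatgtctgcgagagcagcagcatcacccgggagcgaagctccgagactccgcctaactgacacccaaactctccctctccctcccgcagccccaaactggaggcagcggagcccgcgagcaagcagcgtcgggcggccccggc
Unc13a: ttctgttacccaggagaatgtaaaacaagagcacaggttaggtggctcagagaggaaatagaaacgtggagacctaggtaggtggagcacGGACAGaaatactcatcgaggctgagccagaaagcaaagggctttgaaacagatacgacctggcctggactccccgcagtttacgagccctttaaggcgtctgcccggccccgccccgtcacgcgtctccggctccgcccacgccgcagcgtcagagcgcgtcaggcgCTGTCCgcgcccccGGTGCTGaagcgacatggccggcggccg
Stx1a: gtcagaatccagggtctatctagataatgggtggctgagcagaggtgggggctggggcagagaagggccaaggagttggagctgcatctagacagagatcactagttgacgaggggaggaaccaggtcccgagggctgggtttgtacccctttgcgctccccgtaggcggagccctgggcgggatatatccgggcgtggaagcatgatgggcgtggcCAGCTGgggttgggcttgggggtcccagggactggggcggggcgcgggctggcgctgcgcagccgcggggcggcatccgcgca
Syn1: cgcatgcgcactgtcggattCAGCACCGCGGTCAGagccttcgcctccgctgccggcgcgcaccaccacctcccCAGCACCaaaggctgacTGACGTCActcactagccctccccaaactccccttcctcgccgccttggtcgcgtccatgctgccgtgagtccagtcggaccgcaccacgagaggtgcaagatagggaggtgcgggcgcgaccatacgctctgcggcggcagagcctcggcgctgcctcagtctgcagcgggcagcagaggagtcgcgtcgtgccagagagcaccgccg

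Of 32851 promoter windows, 7.14% held CAGCACC, 22.2% held GGACAG, 1.79% held TGACGTCA and 16.3% held CAGCTG. The 27 members found in the table had 42 windows. CAGCACC stood in 5 of the 42 (11.9%), GGACAG in 7 (16.7%), TGACGTCA in 1 (2.38%), that of Syn1, and CAGCTG in 10 (23.8%), among them windows of Stx1a, Dlg2, Cplx1 and Cplx2. Both half-sites 2 bases apart with at most 1 mismatch occurred in 0.186% of all windows and, among members, in Syn1. The Rims1 window held none of these letters.

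Between E14.5 and E18.5, with both genotypes averaged, Dlg2, Lrrtm2, Rims1, Syt4 and 9 other synapse genes rose in the sorted cells, and Cntnap2, Cntnap4, Nptx1 and Gphn fell, each gene read from its brightest probe set. This made 13 of 35 members higher and 4 lower at an adjusted p under 0.05 in limma, where 12.2% of all genes tested rose and 15.5% fell. These counts hold Vamp2 among the risers and Gphn among those that fell, and other probe sets of both genes gave the opposite sign. The members' median log2 difference was 0.38, against -0.06 over all genes. Between E18.5 and P2, 6 members rose and 2 fell, where 17.6% and 22.1% of all genes did, so the share of members that rose, 17.1%, was near that of all genes. From E14.5 to P2, 19 members were higher and 3 lower, beside 22.3% and 31.9% of all genes.

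**Figure D1:**
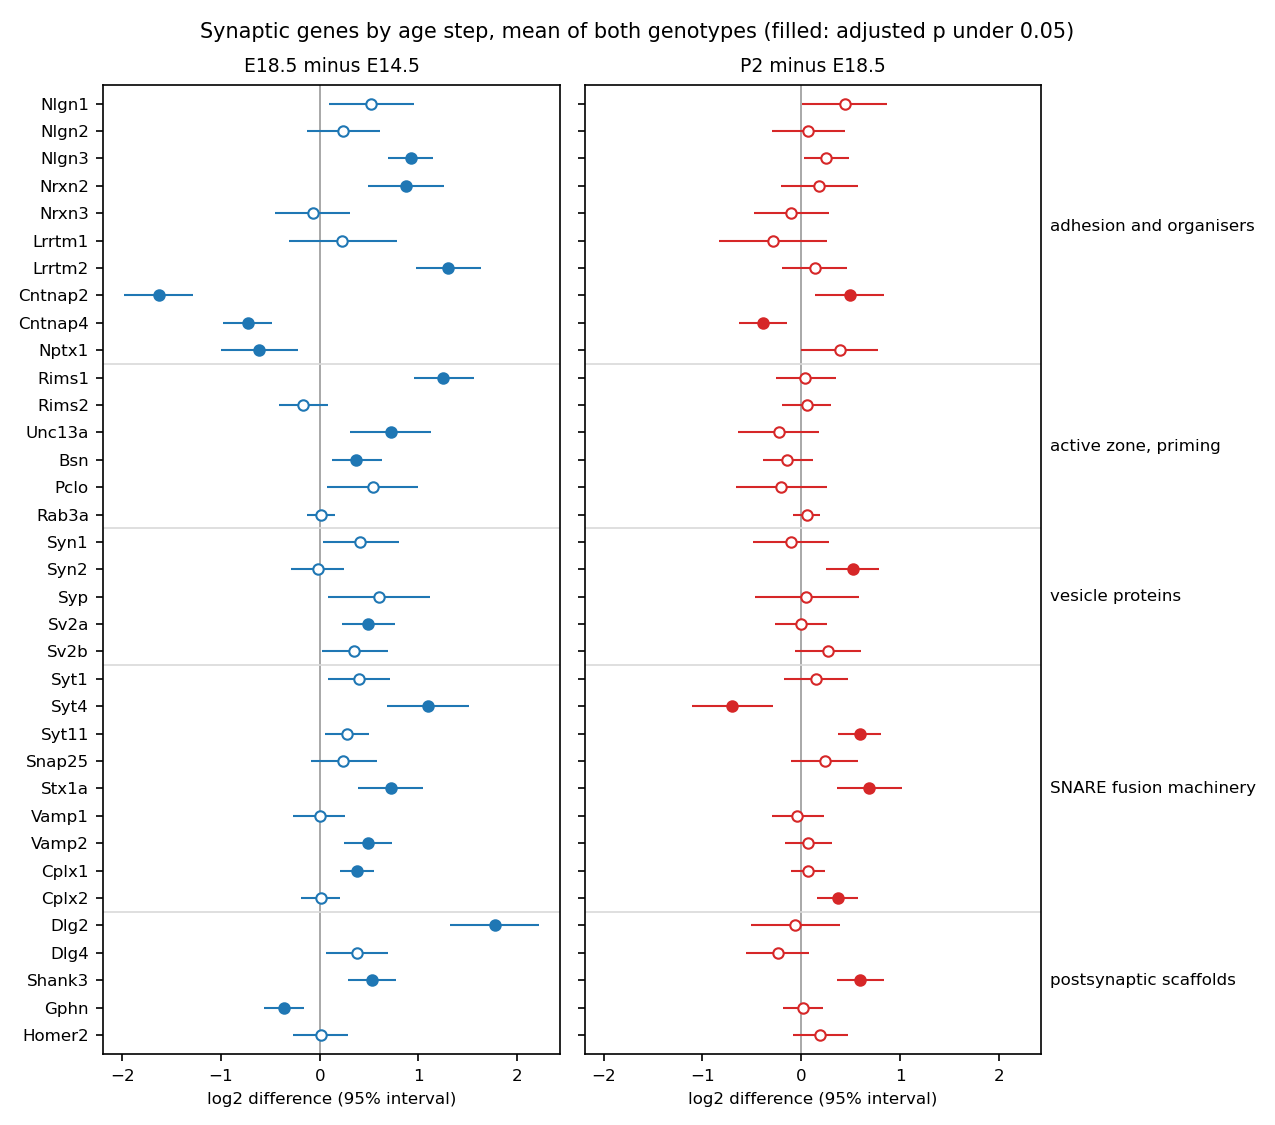
Log2 difference with 95% interval for the 35 tested members, grouped by role, for E18.5 minus E14.5 (left) and P2 minus E18.5 (right), each the mean of both genotypes; filled points passed an adjusted p of 0.05. The left panel holds 17 filled points and the right panel 8, and Cntnap2 lies far left at -1.63 in the left panel.

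Among adhesion genes, the neuroligin Nlgn3, a postsynaptic partner of neurexins, was higher at E18.5 than at E14.5. Nlgn3 measured 8.99, 9.14 and 8.98 in E14.5 Htr3a-KO arrays, 9.87, 9.97 and 9.89 in those of E18.5 and 10.06, 10.04 and 10.22 in those of P2. Control values of Nlgn3 were 8.69, 9.02 and 8.85 for E14.5, 9.69, 10.11 and 9.67 for E18.5 and 10.51, 9.97 and 9.93 for P2. All 6 E14.5 arrays, at 8.69 to 9.14, lay below all 6 E18.5 arrays, with a log2 difference of 0.92 ± 0.11 (SE, adjusted p = 2.5e-05 in limma). Its 2 other tested probe sets, much dimmer, gave 0.53 and 0.10, and the second did not pass (adjusted p = 0.354 in limma over probe sets). Averaged over its probe sets, Nlgn3 differed by 0.52.

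Lrrtm2, a leucine-rich repeat protein that binds neurexins from the postsynaptic side, was also higher at E18.5. Lrrtm2 measured 7.94, 7.82 and 7.5 in E14.5 Htr3a-KO arrays, 9.28, 9.34 and 8.74 in those of E18.5 and 9.25, 9.06 and 9.4 in those of P2. Control values of Lrrtm2 were 7.49, 8.28 and 7.8 for E14.5, 9.47, 8.82 and 8.99 for E18.5 and 9.4, 9.07 and 9.29 for P2. No E14.5 array reached the lowest E18.5 array at 8.74. Lrrtm2 differed by 1.30 ± 0.15 on the log2 scale, a 2.47-fold rise, and the P2 minus E18.5 difference of 0.14 did not pass. All 3 tested Lrrtm2 probe sets passed in the first step. The presynaptic neurexin Nrxn2 averaged 9.87 ± 0.40 at E18.5 and 9.0 ± 0.15 at E14.5 (SD, n = 6 each), a log2 difference of 0.87 with limma's adjusted p of 0.0023, but its second probe set did not pass. Nrxn2 measured 9.2, 9.13 and 8.92 in E14.5 Htr3a-KO arrays, 9.71, 10.47 and 9.78 in those of E18.5 and 10.05, 10.44 and 10.49 in those of P2. Control values of Nrxn2 were 8.91, 8.8 and 9.03 for E14.5, 9.39, 10.24 and 9.64 for E18.5 and 9.8, 9.29 and 10.27 for P2. All E14.5 arrays, at most 9.20, lay below all E18.5 arrays. Nlgn1 was higher at P2 than at E14.5 by 0.96 and passed in neither single step. Nlgn1 measured 7.08, 7.35 and 7.24 in E14.5 Htr3a-KO arrays, 8.24, 7.79 and 7.47 in those of E18.5 and 7.92, 8.38 and 8.28 in those of P2. Control values of Nlgn1 were 6.35, 7.02 and 7.53 for E14.5, 7.76, 7.04 and 7.4 for E18.5 and 7.82, 7.54 and 8.39 for P2. The highest E14.5 array, at 7.53, lay just below the lowest P2 array, at 7.54, and the E18.5 arrays overlapped with both. On their brightest probe sets Nlgn2, the neuroligin of inhibitory synapses, Nrxn3 and Lrrtm1 passed in no age comparison. Their differences were 0.24, -0.07 and 0.23 from E14.5 to E18.5. A dimmer Lrrtm1 probe set gave -0.42 from E14.5 to P2 and passed (adjusted p = 0.0281 in limma over probe sets).

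The Caspr-family genes went the other way. Cntnap2, a neurexin-like protein that clusters potassium channels along axons, fell 3.10-fold between E14.5 and E18.5. Cntnap2 measured 10.48, 10.49 and 11.2 in E14.5 Htr3a-KO arrays, 9.5, 9.26 and 9.42 in those of E18.5 and 10.19, 9.71 and 9.8 in those of P2. Control values of Cntnap2 were 11.11, 11.97 and 10.9 for E14.5, 9.31, 9.49 and 9.38 for E18.5 and 9.89, 9.85 and 9.84 for P2. Every E14.5 array exceeded every later array, the highest E18.5 array standing at 9.50. Cntnap2 differed by -1.63 ± 0.16 on the log2 scale (adjusted p = 8e-06 in limma), and a second probe set fell by 0.71. From E14.5 to P2 the brightest probe set gave -1.14. The second gave -0.09 and did not pass (adjusted p = 0.791 in limma over probe sets). Markers of striatal neurons fell between E14.5 and E18.5, 6 of 9 tested being lower, beside 15.5% of all genes. Their median was -1.20, and the striatal transcription factor Isl1 led at -4.40. Isl1 measured 6.21, 9.34 and 10.38 in E14.5 Htr3a-KO arrays and 11.97, 12.25 and 8.95 in E14.5 control arrays, and at most 6.30 in every later array. Among E14.5 arrays, control array 2 was highest and Htr3a-KO array 1 lowest for both Isl1 and Cntnap2. In E14.5 Htr3a-KO array 1 Isl1 was 6.21 and Cntnap2 10.48, against 6.30 and 9.42 in E18.5 Htr3a-KO array 3. Over the 9 tested striatal markers these arrays averaged 8.09 and 7.58, so they were not alike over the list. The part of striatal cells in the Cntnap2 difference was not tested. Cntnap2 then rose by 0.49 to P2 (adjusted p = 0.0281 in limma), a call lost without E18.5 control array 1, E18.5 Htr3a-KO array 2 or P2 Htr3a-KO array 1, where limma's adjusted p was 0.0568, 0.0609 and 0.0724.

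Cntnap4, a relative of Cntnap2 that in mice acts at the terminals of GABAergic interneurons, declined in both steps. Cntnap4 measured 8.55, 8.12 and 7.96 in E14.5 Htr3a-KO arrays, 7.4, 7.23 and 7.17 in those of E18.5 and 6.69, 6.99 and 6.95 in those of P2. Control values of Cntnap4 were 7.91, 7.85 and 7.94 for E14.5, 7.28, 7.17 and 7.7 for E18.5 and 7.24, 6.82 and 6.95 for P2. The E14.5 arrays, at 7.85 to 8.55, lay above all E18.5 arrays, while E18.5 and P2 arrays overlapped. The log2 differences were -0.73 and -0.39, and the second was not called without P2 Htr3a-KO array 1 and P2 control array 2. Nptx1, a secreted pentraxin that gathers AMPA receptors, fell by 0.61 between E14.5 and E18.5, with a mean of 7.06 ± 0.15 at E18.5 and 7.68 ± 0.33 at E14.5 (SD, n = 6 each), and its other tested probe set did not pass. Nptx1 measured 7.93, 8.11 and 7.48 in E14.5 Htr3a-KO arrays, 7.21, 7.05 and 6.99 in those of E18.5 and 6.79, 7.45 and 6.79 in those of P2. Control values of Nptx1 were 7.38, 7.31 and 7.84 for E14.5, 7.25, 6.83 and 7.05 for E18.5 and 8.38, 8.06 and 7.24 for P2. All E14.5 arrays, from 7.31, lay above all E18.5 arrays, and the P2 control arrays held the highest value.

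**Figure D2:**
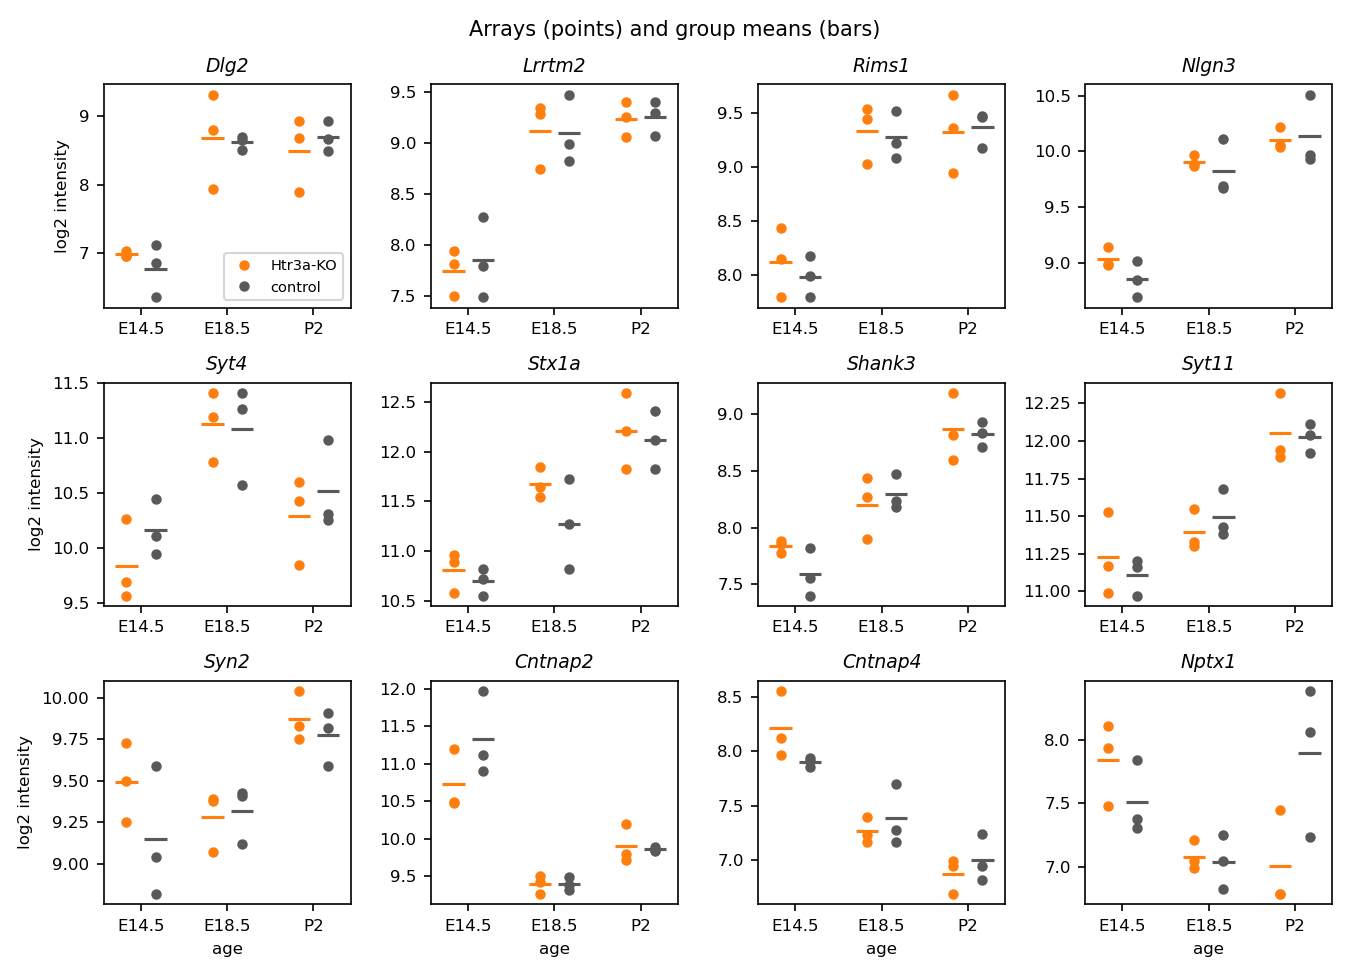
Log2 intensity of 12 members in every array by age, Htr3a-KO points left of control points, with a bar at each group's mean. Dlg2, Lrrtm2, Rims1 and Nlgn3 step up between E14.5 and E18.5, Syt4 is highest at E18.5, and Cntnap2 is highest at E14.5.

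At the active zone, Rims1, which tethers calcium channels and primes vesicles, rose 2.38-fold between E14.5 and E18.5. Rims1 measured 8.15, 8.43 and 7.79 in E14.5 Htr3a-KO arrays, 9.54, 9.44 and 9.03 in those of E18.5 and 8.94, 9.67 and 9.36 in those of P2. Control values of Rims1 were 7.99, 8.17 and 7.79 for E14.5, 9.52, 9.08 and 9.22 for E18.5 and 9.47, 9.18 and 9.46 for P2. The highest E14.5 array, at 8.43, lay below the lowest E18.5 array, at 9.03, and the later 2 ages overlapped. The log2 difference was 1.25 ± 0.14 (adjusted p = 2.2e-05 in limma), and both tested Rims1 probe sets passed.

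Unc13a, or Munc13-1, which primes vesicles for fusion, averaged 8.19 ± 0.27 at E18.5 and 7.47 ± 0.14 at E14.5 (SD, n = 6 each), a log2 difference of 0.72. Its P2 arrays spread from 7.34 to 8.67, with P2 Htr3a-KO array 1 lowest and P2 control array 2 next at 7.35. Bsn, the scaffold Bassoon, rose by 0.37, and its 2 other tested probe sets did not pass. For Pclo, or Piccolo, the brightest probe set gave 0.54 (adjusted p = 0.0788 in limma) while 2 dimmer ones rose by 1.06 and 1.48. Rims2 and the vesicle GTPase Rab3a did not pass, with differences of -0.17 and 0.01. No active zone member passed between E18.5 and P2 on its brightest probe set, but 2 slightly dimmer probe sets of Rims2, both averaging 8.35 beside 8.49, rose by 0.38 and 0.28 in that step (adjusted p = 0.0496 and 0.0345 in limma over probe sets).

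Among vesicle proteins, the glycoprotein Sv2a rose by 0.49 between E14.5 and E18.5, to 10.58 ± 0.10 at E18.5 against 10.08 ± 0.18 at E14.5 (SD, n = 6 each). Syn2, a synapsin that tethers vesicles in reserve, was higher at P2 than at E18.5. Syn2 measured 9.5, 9.25 and 9.73 in E14.5 Htr3a-KO arrays, 9.39, 9.38 and 9.07 in those of E18.5 and 10.04, 9.75 and 9.83 in those of P2. Control values of Syn2 were 8.82, 9.04 and 9.59 for E14.5, 9.43, 9.12 and 9.41 for E18.5 and 9.59, 9.82 and 9.91 for P2. The lowest P2 array, at 9.59, lay above the highest E18.5 array, at 9.43. The log2 difference was 0.52 ± 0.13 (adjusted p = 0.00426 in limma). No other tested Syn2 probe set passed in that step, and 2 of them fell by 0.62 and 0.63 between E14.5 and E18.5, so the direction for Syn2 differs between probe sets. Syp (synaptophysin) and Sv2b were higher at P2 than at E14.5 by 0.65 and 0.63 without passing in either step. Syn1 gave 0.41, -0.10 and 0.31 and passed in none of these comparisons.

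In the fusion machinery, Syt4, an atypical synaptotagmin that does not bind calcium as Syt1 does, had its highest mean at E18.5. Syt4 measured 10.27, 9.57 and 9.69 in E14.5 Htr3a-KO arrays, 11.41, 11.19 and 10.78 in those of E18.5 and 9.85, 10.6 and 10.43 in those of P2. Control values of Syt4 were 9.95, 10.45 and 10.11 for E14.5, 11.41, 10.57 and 11.26 for E18.5 and 10.26, 10.31 and 10.98 for P2. E18.5 arrays began at 10.57, above every E14.5 array, and overlapped with the P2 arrays, which reached 10.98. The log2 difference was 1.10 ± 0.19 between E14.5 and E18.5 (adjusted p = 0.000786 in limma) and -0.70 ± 0.19 between E18.5 and P2 (adjusted p = 0.00975 in limma). The call of the fall to P2 did not hold throughout: a probe set of nearly the same brightness gave -0.34 (limma's adjusted p = 0.243), and without P2 Htr3a-KO array 1 and P2 control array 2, left out after their values were seen, the difference was -0.54 (limma's adjusted p = 0.0611).

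Stx1a, the plasma membrane syntaxin, rose in both steps. Stx1a measured 10.96, 10.58 and 10.89 in E14.5 Htr3a-KO arrays, 11.64, 11.84 and 11.54 in those of E18.5 and 11.82, 12.59 and 12.21 in those of P2. Control values of Stx1a were 10.72, 10.82 and 10.55 for E14.5, 11.27, 10.82 and 11.72 for E18.5 and 11.82, 12.12 and 12.41 for P2. The P2 arrays, from 11.82, lay above every E14.5 array, at most 10.96, and overlapped with the E18.5 arrays in 1 value, 11.84. Stx1a gained 0.72 on the log2 scale in the first step and 0.69 in the second, 2.65-fold over the whole span. A second probe set gave 0.84 and 0.38, and the second value did not pass (adjusted p = 0.127 in limma over probe sets).

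Syt11, a synaptotagmin that slows vesicle uptake, rose in the second step. Syt11 measured 10.99, 11.17 and 11.53 in E14.5 Htr3a-KO arrays, 11.3, 11.33 and 11.55 in those of E18.5 and 12.32, 11.94 and 11.89 in those of P2. Control values of Syt11 were 10.97, 11.2 and 11.16 for E14.5, 11.43, 11.68 and 11.38 for E18.5 and 11.92, 12.11 and 12.04 for P2. Every P2 array, from 11.89, lay above every E18.5 array, at most 11.68. The log2 difference was 0.59 ± 0.10 (adjusted p = 0.000397 in limma), and the 4 other tested probe sets gave like values that passed. In the first step the brightest probe set gave 0.28 and did not pass (adjusted p = 0.0599 in limma). Slightly dimmer ones rose by 0.46, 0.49 and 0.47 in that step and passed, and the dimmest gave 0.26 without passing.

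Vamp2, or synaptobrevin-2, rose by 0.49 between E14.5 and E18.5 on its brightest probe set and fell by 0.64 on the other, both past the threshold, so no direction is given for the gene. The complexins, which clamp and release the SNARE bundle, were called in different steps: Cplx1 rose by 0.38 in the first step and Cplx2 by 0.37 in the second, each with a difference near 0 in the other step. Cplx1 measured 11.23, 11.41 and 11.07 in E14.5 Htr3a-KO arrays, 11.45, 11.54 and 11.32 in those of E18.5 and 11.49, 11.74 and 11.54 in those of P2. Control values of Cplx1 were 10.97, 11.2 and 11.08 for E14.5, 11.71, 11.46 and 11.76 for E18.5 and 11.7, 11.61 and 11.57 for P2. The E14.5 and E18.5 arrays of Cplx1 overlapped, since 1 E14.5 array, at 11.41, exceeded the lowest E18.5 array, at 11.32. Cplx2 measured 10.32, 10.17 and 10.44 in E14.5 Htr3a-KO arrays, 10.1, 10.17 and 9.98 in those of E18.5 and 10.47, 10.72 and 10.48 in those of P2. Control values of Cplx2 were 9.74, 9.94 and 10.36 for E14.5, 10.19, 10.32 and 10.27 for E18.5 and 10.63, 10.41 and 10.53 for P2. Each P2 array of Cplx2, from 10.41, lay above each E18.5 array, at most 10.32. Whether the steps differ was tested within each gene and passed for neither, with differences of 0.31 and -0.36 (adjusted p = 0.132 and 0.142 in limma). Snap25 and the calcium sensor Syt1 were higher at P2 than at E14.5 by 0.48 and 0.55, and Vamp1 passed in no age comparison.

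Among postsynaptic scaffolds, Dlg2, or PSD-93, showed the largest rise of all members between E14.5 and E18.5. Dlg2 measured 7.03, 6.97 and 6.96 in E14.5 Htr3a-KO arrays, 9.31, 8.8 and 7.94 in those of E18.5 and 7.89, 8.68 and 8.92 in those of P2. Control values of Dlg2 were 6.36, 7.12 and 6.86 for E14.5, 8.65, 8.51 and 8.7 for E18.5 and 8.49, 8.66 and 8.92 for P2. All 6 E14.5 arrays, at most 7.12, lay below all later arrays, which began at 7.89. Dlg2 differed by 1.77 ± 0.21 on the log2 scale, a 3.41-fold rise (adjusted p = 3e-05 in limma). A dimmer probe set rose by 0.74 and then fell by 0.86 to P2, where the brighter one gave -0.06.

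Shank3, which links receptors to the actin cytoskeleton, rose in both steps. Shank3 measured 7.86, 7.88 and 7.78 in E14.5 Htr3a-KO arrays, 8.27, 8.44 and 7.9 in those of E18.5 and 8.6, 9.19 and 8.82 in those of P2. Control values of Shank3 were 7.56, 7.82 and 7.4 for E14.5, 8.24, 8.18 and 8.47 for E18.5 and 8.84, 8.71 and 8.93 for P2. Each P2 array, from 8.60, lay above each E18.5 array, at most 8.47. The log2 differences were 0.53 ± 0.11 and 0.60 ± 0.11. Gphn, gephyrin, fell by 0.36 on the brightest of its probe sets, but a probe set of equal mean brightness, 9.26, gave 0.14 and a dimmer one 0.36, and both were higher at P2 than at E14.5, so the direction for gephyrin is not settled. Dlg4 (PSD-95) and Homer2 passed in no age comparison, with first-step differences of 0.38 and 0.01.

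The genes called differed in how well other probe sets agreed. Of 29 members with more than 1 tested probe set, 8 calls between E14.5 and E18.5 were shared by a second probe set and 5 were not (Bsn, Gphn, Nptx1, Nrxn2 and Vamp2). For 5 genes only a dimmer probe set passed (Pclo, Sv2b, Syn2, Syt1 and Syt11). Between E18.5 and P2 a second probe set shared 2 calls (Cplx2 and Syt11) and did not share 4 (Cntnap2, Stx1a, Syn2 and Syt4), and for 4 genes only a dimmer one passed (Dlg2, Gphn, Nptx1 and Rims2). Over the whole span 8 calls were shared and 9 were not (Cntnap2, Cplx2, Dlg2, Gphn, Nrxn2, Snap25, Syp, Syt1 and Vamp2). For 4 genes only a dimmer probe set passed over the span (Lrrtm1, Pclo, Rims2 and Syt4). There, 3 genes (Gphn, Syn2 and Vamp2) had probe sets that passed in opposite directions.

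**Figure D3:**
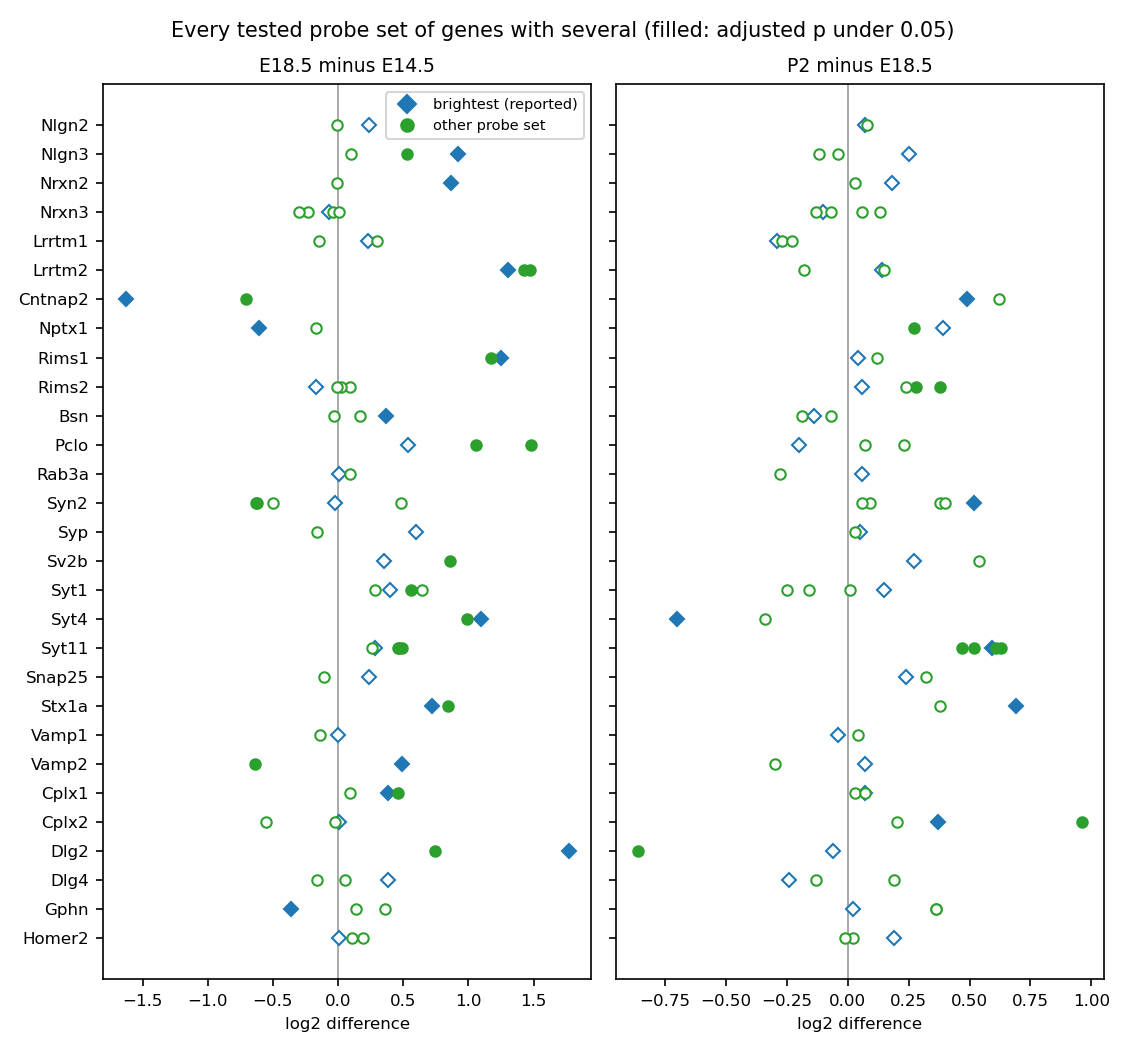
Log2 differences of every tested probe set of the 29 members with several, for E18.5 minus E14.5 (left) and P2 minus E18.5 (right); diamonds are the brightest probe set, circles the others, and filled symbols passed an adjusted p of 0.05 over all probe sets. Lrrtm2 and Rims1 probe sets sit close together on the left, and those of Vamp2 lie on opposite sides of 0.

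A contrast added after the data were seen asked whether the first step exceeded the second. It passed for 7 members, 5 higher (Nlgn3, Lrrtm2, Rims1, Syt4 and Dlg2) and 2 lower (Cntnap2 and Nptx1), where 8.54% and 9.17% of all genes passed. Nptx1, at -1.0, lost this call in 12 of 28 alternatives, 11 of which left out a single array (adjusted p up to 0.0956 in limma). The step difference was 1.80 for Syt4, 1.83 for Dlg2 and -2.12 for Cntnap2. Both steps use the E18.5 arrays, so a high or low value there enters both.

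The genotypes were also compared with themselves across age, on arrays they do not share. In Htr3a-KO cells 8 members rose and 2 fell between E14.5 and E18.5, where 6.26% and 8.88% of all genes did. In control cells 9 rose and 1 fell, where 6.06% and 4.93% did. Dlg2, Lrrtm2, Nlgn3, Nrxn2, Rims1 and Syt4 rose in both, which is 75% of the 8 in Htr3a-KO and 66.7% of the 9 in control, beside 55.7% and 57.5% of the rises over all genes, and Cntnap2 fell in both. The control call of Syt4, a rise of 0.91 (adjusted p = 0.0442 in limma), was lost in 9 of 16 alternatives, among them 5 of the 6 that left out a single array (all but E18.5 array 2), with adjusted p up to 0.165 in limma. Cntnap2 in Htr3a-KO was not called when its probe sets were averaged (adjusted p = 0.0514 in limma). Dlg2 rose by 1.70 in Htr3a-KO and 1.84 in control, and Cntnap2 fell by 1.33 in Htr3a-KO and 1.93 in control.

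Between E18.5 and P2, 4 members rose in Htr3a-KO cells (Syn2, Syt11, Cplx2 and Shank3) and Syt4 fell, where 13.5% and 15% of all genes did. In control cells Nptx1, Syt11, Stx1a and Shank3 rose and 0 fell in limma, with 2 lower at an unadjusted p under 0.05, where 9.96% of all genes rose and 9.75% fell. Shank3 and Syt11 rose in both, by 0.67 and 0.66 in Htr3a-KO and 0.53 and 0.53 in control. This is 50% of the 4 rises in each genotype, beside 53.8% of the Htr3a-KO and 72.9% of the control rises over all genes. The Htr3a-KO calls of Syt4, Syn2 and Cplx2 were lost in 6, 4 and 3 of 17 alternatives, among them 3, 2 and 2 that left out a single array. These arrays were E18.5 arrays 1 and 2 and P2 array 1 for Syt4, E18.5 array 3 and P2 array 1 for Syn2, and E18.5 array 3 and P2 array 2 for Cplx2. Each of the 4 control calls was lost in at least 2 of 6 fits that left out a single array, and each of the 6 arrays cost at least 1 call. Lrrtm1 stood at -0.79 in Htr3a-KO and 0.21 in control, and Nptx1 at -0.07 in Htr3a-KO and 0.85 in control. The differences between genotypes in that step, -1.0 and -0.92, did not pass (adjusted p = 0.712 and 0.686 in limma). Lrrtm1 in P2 arrays measured 8.3, 9.42 and 9.29 in Htr3a-KO, against 9.14, 8.99 and 9.89 in control, with overlapping groups. Dlg4 came next, at 0.56 (adjusted p = 0.72 in limma), with 7.88, 7.38 and 6.91 in E18.5 Htr3a-KO arrays and 7.29, 7.47 and 7.52 in P2 ones, and with 7.35, 7.79 and 7.79 in E18.5 control arrays and 6.99, 6.83 and 7.55 in P2 ones. In the first step the smallest p belonged to Cplx2, at -0.47, Cplx1, at -0.36, and Cntnap4, at -0.43, and none passed.

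**Figure D4:**
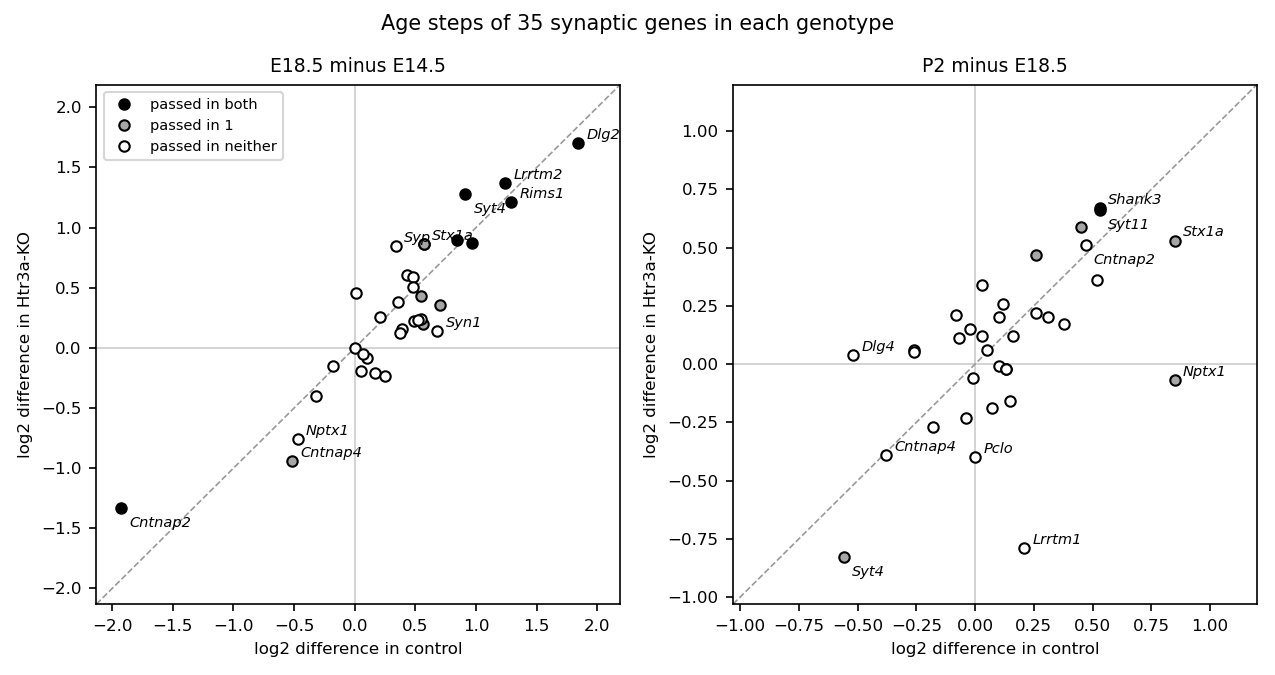
Log2 difference of each member in Htr3a-KO (vertical) against control (horizontal) for both age steps, with shading for whether it passed in both, in 1 or in neither genotype; the dashed line marks equal differences. Dlg2 and Cntnap2 lie at the ends in the first step, and Nptx1 and Lrrtm1 lie farthest below the line in the second.

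No member passed the test for a difference between Htr3a-KO and control cells. At E14.5, E18.5 and P2 limma called 0 of 35 members, where 0.014%, 0.021% and 0.035% of all genes were called. At an unadjusted p under 0.05 there were 2, 0 and 1 members, beside 5.86%, 12.9% and 7.58% of all genes. Over the mean of the 3 ages limma called 0 members and 0.294% of all genes, with 1 member and 11.2% of all genes at an unadjusted p under 0.05. The test of whether the genotypes differ in a step called 0 members in both steps, beside 0.007% and 0% of all genes, with 2 and 1 members unadjusted, beside 7.22% and 7.23% of all genes.

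The size of difference these arrays could show is read from the intervals. The 95% interval of a member's difference reached a median of 0.45 to either side at a single age and 0.26 over the mean of the 3 ages. For the mean of the ages all 35 intervals lay between -0.51 and 0.67 on the log2 scale, inside a difference of 1 either way. Single-age intervals were wider, the lowest bound being -1.44 and the highest 1.44.

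The members with the smallest p at each age are given with their arrays. Nptx1 at P2 measured 6.79, 7.45 and 6.79 in Htr3a-KO, against 8.38, 8.06 and 7.24 in control. The groups overlap, since 1 control array is below the highest Htr3a-KO array. The difference was -0.88 (95% interval -1.44 to -0.33, limma's adjusted p = 0.53). Nrxn2 came next at P2, with 10.05, 10.44 and 10.49 in Htr3a-KO, against 9.8, 9.29 and 10.27 in control. The difference was 0.54 (limma's adjusted p = 0.657) between overlapping groups.

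Cntnap2 at E14.5 measured 10.48, 10.49 and 11.2 in Htr3a-KO, against 11.11, 11.97 and 10.9 in control. The groups overlap at 10.90 to 11.20, and the difference was -0.60 (limma's adjusted p = 0.743). Striatal markers also differed in level between these arrays, averaging 8.69 in Htr3a-KO and 9.75 in control at E14.5 with overlapping ranges, and their part in the Cntnap2 difference was not tested. Cplx2 at E14.5 measured 10.32, 10.17 and 10.44 in Htr3a-KO, against 9.74, 9.94 and 10.36 in control, a difference of 0.30 (limma's adjusted p = 0.831) between overlapping groups. Syn2 at E14.5 differed by 0.34 (limma's adjusted p = 0.875), with overlapping groups. Lrrtm1 at E18.5 measured 10.12, 10.02 and 9.23 in Htr3a-KO, against 10, 8.53 and 8.85 in control, a difference of 0.66 (limma's adjusted p = 0.468) between overlapping groups. Stx1a and Cplx1 followed at E18.5, with differences of 0.40 and -0.21 (limma's adjusted p = 0.469 and 0.472) between the overlapping arrays given above. Sv2a at P2 measured 10.05, 10.79 and 10.39 in Htr3a-KO, against 11.03, 10.58 and 10.6 in control, a difference of -0.33 between overlapping groups. Nrxn2 over the mean of the ages differed by 0.31, Nlgn1 by 0.32 and Stx1a by 0.20. The unadjusted interval of Nrxn2 lay just above 0 (limma's adjusted p = 0.443), and those of Nlgn1 and Stx1a included 0.

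**Figure D5:**
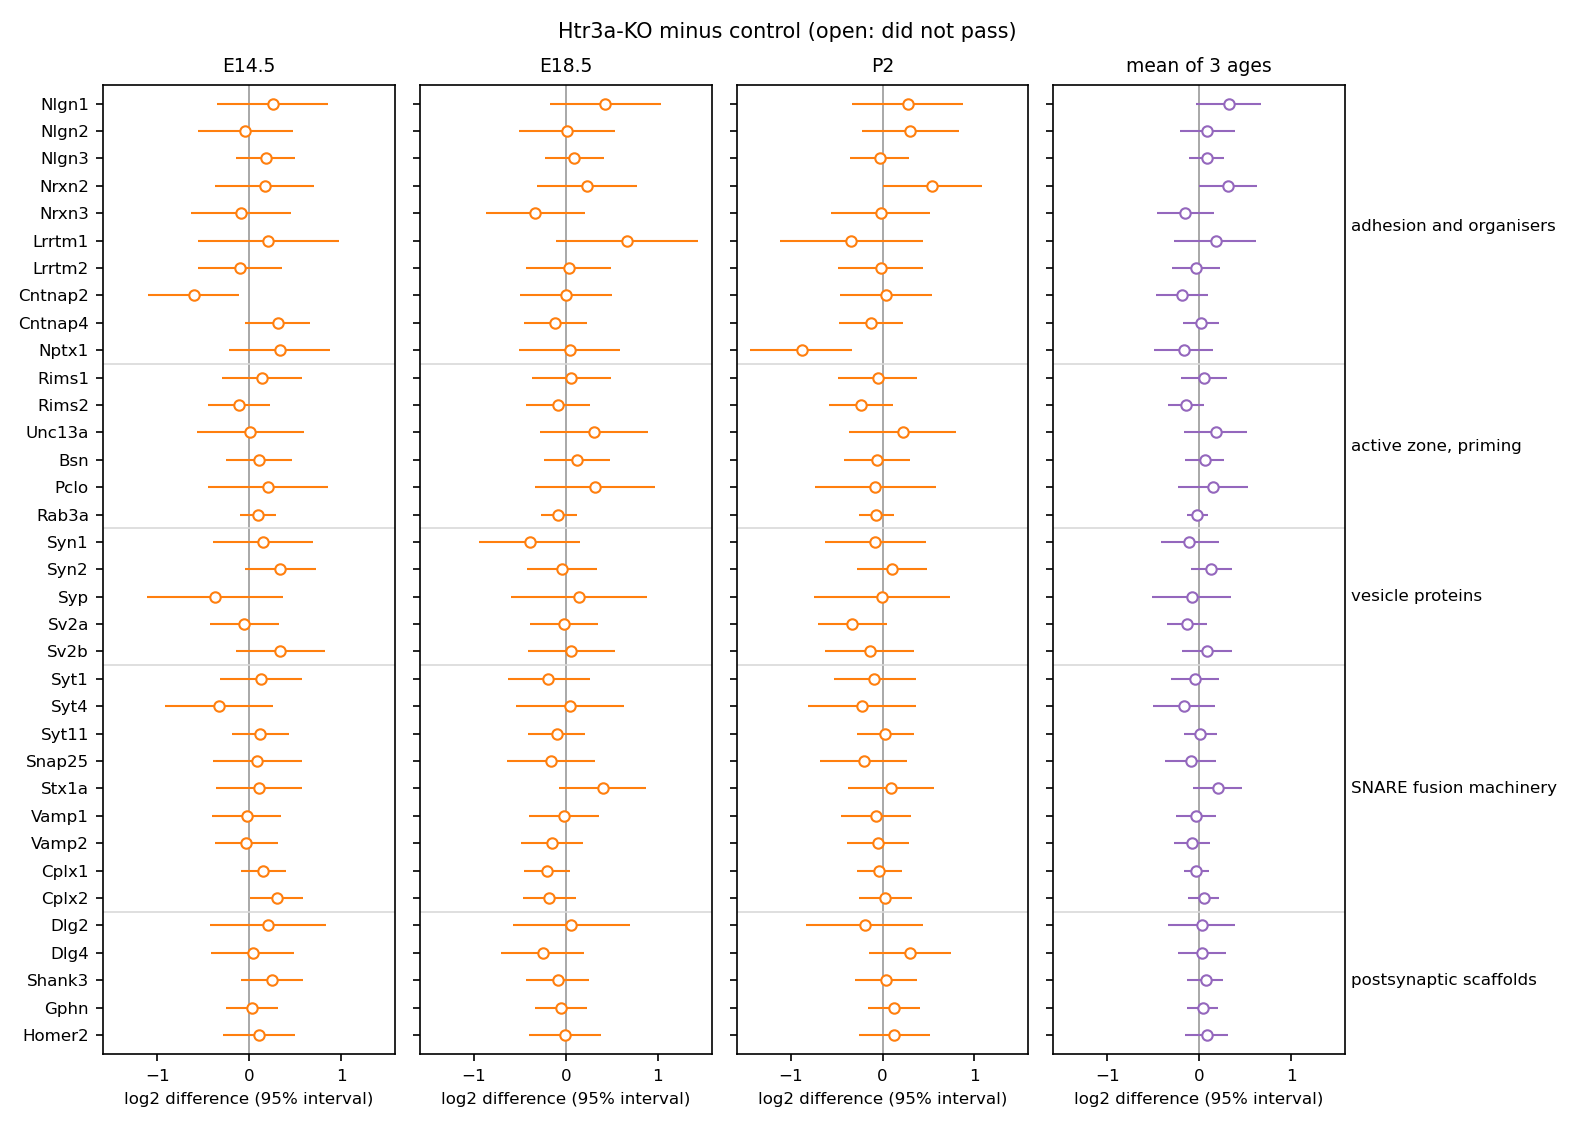
Log2 difference between Htr3a-KO and control with 95% interval for the 35 tested members by role, at each age and for the mean of the 3 ages; open points did not pass. No point is filled, and intervals are narrowest in the last panel.

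A few arrays were low for many members at once. Among the 6 arrays of an age, E18.5 Htr3a-KO array 3 was lowest for 17 of the 35 members, P2 Htr3a-KO array 1 for 17 and E14.5 control array 1 for 15. The excitatory marker mean in P2 Htr3a-KO array 1 was 7.53, below the 8.38 to 8.77 of the other P2 arrays, and its astrocyte mean was the highest at 11.13. In E18.5 Htr3a-KO array 3 the excitatory mean was 9.79, inside the E18.5 range of 9.54 to 9.95. Its astrocyte mean, 8.51, was the highest of that age. In E14.5 control array 1 both means were the lowest of that age, at 10.25 and 7.06. The part of cell content in these arrays' values was not tested.

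Other genes of the same pathways were read from 4 lists, with 132 of 147 genes tested. Between E14.5 and E18.5, 46 of them (34.8%) rose and 11 (8.33%) fell, beside 12.2% and 15.5% of all genes. Between E18.5 and P2, 31 (23.5%) rose and 15 (11.4%) fell, beside 17.6% and 22.1% of all genes. At P2, 63 (47.7%) were higher and 20 (15.2%) lower than at E14.5, beside 22.3% and 31.9% of all genes. Among 48 tested release genes 16 rose (33.3%) and 3 fell in the first step, led by Unc13c, a Munc13 relative, at 1.83 and Ppfia2, a liprin of the active zone, at 1.51. In the second step 15 rose (31.2%) and 4 fell, led by Unc13c at 2.08 and Stxbp6 at 1.43. Among 22 vesicle genes 11 rose (50%) and 1 fell in the first step, with Dnm3, a dynamin that pinches off vesicles, at 1.22, and the vesicular GABA transporter Slc32a1 fell by 0.94. Their second step had 5 rises (22.7%) and 3 falls, with Slc17a6, the vesicular glutamate transporter VGLUT2 and an excitatory marker, at -1.51 and the vesicle protein Synpr at 1.02. Among 38 adhesion genes 14 rose (36.8%) and 4 fell in the first step, led by Nptx2, a relative of Nptx1, at 1.54 and the latrophilin Adgrl3 at 1.44. They split evenly into 7 rises and 7 falls (18.4% each) in the second, led by Il1rap at 1.67 and C1ql3 at 1.45. Among 24 scaffold genes 5 rose (20.8%) and 3 fell in the first step, led by the kinase Camk2b at 1.69 and Dlgap1 at 1.42, and 4 rose (16.7%, near the share of all genes) and 1 fell in the second, with Tanc1 at 0.96 and Dlgap4 at -0.57. Of the 132 genes only Il1rap, a synaptic adhesion and interleukin receptor protein, differed between genotypes, higher in Htr3a-KO by 0.49 over the mean of the 3 ages (adjusted p = 0.0404 in limma).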

How the data were processed

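RNA of sorted cells was amplified, biotin-labelled and hybridised to 18 arrays, as the labels' protocols describe. The deposited values are on the log2 scale: the authors analysed the scans with Partek Genomic Suite and normalized them by RMA, per the labels. Array medians ran from 6.35 to 6.46, and replicate arrays correlated at 0.984 to 0.996. The number of arrays limits the precision.

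The array annotation gives 34945 of 45101 probe sets 1 gene, 932 several and 9160 none; 64 are controls. Probe sets in the lowest 30% by mean were left out, and each gene was read from its brightest probe set. limma 3.58.1 in R 4.3.3 fitted 1 mean per group (12 residual degrees of freedom), with Benjamini-Hochberg adjustment over 14292 genes. In simulated data with independent noise, the E18.5 minus E14.5 test recovered 65% of 1.5-fold and 92% of 2-fold changes, with 11 false calls. The genotype tests were not simulated. Probe-set values come from the same fit over all probe sets. Intervals are 95% and unadjusted. Called means an adjusted p under 0.05.

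Members, lists and tests were chosen with earlier results of these data known. Arrays shown one by one are the 6 members with the largest passing changes per comparison, or the 3 with the smallest p where fewer than 3 passed; 14 comparisons were made, 1 added after seeing the data. In leave-one-out and renormalized fits the probe sets were kept as in the full data, a choice made after picking them anew was seen to switch Syt4 to its other probe set.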

Additional observations from a re-analysis of the deposited data

How the results depend on the processing

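Of 63 member results named by the rule, 45 were called: 31 kept their call in every alternative run and 14 lost it somewhere. The other 18, all genotype comparisons, were not called and gained no call. Over 1287 values compared, none of the 63 reversed. Array weights raised the counts to 26 members between E14.5 and E18.5 (19 in Htr3a-KO, 17 in control), 9 between E18.5 and P2 in Htr3a-KO and 16 for the difference between steps. Calls over all 14292 genes went up too. They went from 3961 to 5909 between E14.5 and E18.5 (2163 to 4795 in Htr3a-KO, 1571 to 3166 in control). Between E18.5 and P2 in Htr3a-KO they went from 4070 to 5788, and for the difference between steps from 2531 to 4623. Averaging a gene's probe sets left 3 members called between E18.5 and P2 in Htr3a-KO, beside 4284 calls over all genes.

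Leaving out 1 array at a time gave 16 to 22 members between E14.5 and E18.5, 7 to 10 between E18.5 and P2 and 19 to 24 over the whole span. Over all genes it gave 3017 to 4004, 4961 to 5701 and 7235 to 7648 calls. Within a genotype it gave 7 to 12 members (Htr3a-KO) and 7 to 11 (control) in the first step, and 3 to 5 (Htr3a-KO) and 1 to 2 (control) in the second. For the difference between steps it gave 5 to 9 members. Over all genes the counts were 928 to 1982 (Htr3a-KO) and 916 to 1417 (control) in the first step. They were 2517 to 3718 and 1823 to 2901 in the second, and 1379 to 2865 for the difference between steps. The Htr3a-KO minimum of 3 members in the second step was without E18.5 array 3. The control second step has 4 members called with all arrays and 1 or 2 without any single one, the 1 being without E18.5 array 2. Genotype comparisons stayed at 0 members. Over all genes they gave 0 to 135 calls at E14.5, 2 to 20 at E18.5 and 0 to 21 at P2. Over the mean of the 3 ages they gave 17 to 128. With array weights members also stayed at 0 there, beside 119, 876, 8 and 318 calls over all genes.

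Without P2 Htr3a-KO array 1 and P2 control array 2, an alternative chosen after seeing the data, 7 members were called between E18.5 and P2, all higher, so neither Syt4 (-0.54) nor Cntnap4 was called lower there, and Cntnap2 gave 0.42 without passing. Over all genes 4748 were called in that fit, against 5673 with all arrays. Without probe sets whose IDs mark possible matches to several transcripts, also chosen after seeing the data, Stx1a gave 0.38 between E18.5 and P2 (limma's adjusted p = 0.12). The causes were not tested.

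The replicate block gave 17 members between E14.5 and E18.5, 8 between E18.5 and P2 and 21 over the span, the last without Unc13a. Over all genes it gave 3726, 5452 and 7560 calls. Within genotypes the block gave 9 members in Htr3a-KO (without Unc13a) and 7 in control (without Nrxn2, Vamp2 and Syt4, where Syt4 gave 0.91 with limma's adjusted p of 0.0667) in the first step, against 10 and 10, and 5 and 4 in the second, as without the block. Over all genes these were 1885 and 1394 in the first step and 3784 and 2580 in the second. No pairing of samples by number was evident: 2 of 9 correlations of same-numbered deviations were over 0.1, from -0.54 to 0.30. So few correlations cannot exclude shared litters, and whether the numbers mark them is not stated. Signal over background limits Sv2c and Shank1, which the filter left out. Without the filter Sv2c was called higher at P2 than at E14.5 (0.46, limma's adjusted p = 0.00103) and in no other comparison, and Shank1 in none.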
